A study of Homo sapiens with 8 samples.

Results

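The 17β-hydroxysteroid dehydrogenases (17β-HSDs) were followed in T47D cells, an established luminal breast cancer line that carries the estrogen receptor. The 10 genes HSD17B1, HSD17B2, HSD17B4, HSD17B6, HSD17B7, HSD17B8, HSD17B10, HSD17B11, HSD17B12 and HSD17B14 were chosen by name. Each was read from a probe set, a group of short array probes for 1 transcript region, that the platform annotation pairs with exactly 1 gene symbol, and the brightest stood for the gene. On this rule 9 of the 10 genes were measured, out of 18417 genes in all. HSD17B7 is not reported, because its only probe set also names the pseudogene HSD17B7P2.

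RNA was hybridised to 8 Affymetrix Human Gene 1.0 ST arrays, 2 for each of 4 groups. All cells were starved of steroids in charcoal-treated medium for 2 days and then transfected with scrambled control siRNA or with a 200 nM mix of 3 siRNAs against 17β-HSD1. The medium was replaced 48 h later by one with 1 nM estradiol (E2) or with ethanol as the vehicle, and RNA was taken 2 days after that. Each siRNA was thus combined with each medium, which gives the 4 groups, and the labels describe 2 independent cell culture experiments. The design asks whether the siRNA acts on the targeted member of the family alone, and whether other members move when it is lowered or when E2 is added.

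These enzymes were named for reducing or oxidising the oxygen group that sets the potency of estrogens and androgens. HSD17B1 encodes the enzyme that reduces estrone to the potent estradiol, and HSD17B2 the one that oxidises estradiol back to estrone. Most of the others have main substrates outside the sex steroids: HSD17B4 in peroxisomal fatty acid oxidation, HSD17B12 in fatty acid elongation, HSD17B10 and HSD17B8 in mitochondria, and HSD17B11 on lipid droplets.

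The deposited values are log2 signals, with array medians between 7.25 and 7.37. 1 array stood apart: replicate 1 of 17β-HSD1 siRNA with vehicle had a mean correlation of 0.973 with the other arrays, against 0.981 to 0.988 for the rest. It was also the lowest of the 8 arrays for 4 of the 9 genes (HSD17B4, HSD17B8, HSD17B10 and HSD17B12), so member results that move with it are given with and without it. It was the lowest array for 21.7% and the highest for 37.9% of all probe sets tested. All 8 luminal epithelial markers lay above the median of all probe sets, with an array mean between 11.5 and 11.9. None of the 5 endothelial and 5 immune markers did, and 2 of 6 fibroblast and 3 of 4 basal markers did (array means between 7.32 and 7.74 for the basal list). The signals of HSD17B2, HSD17B6, HSD17B11 and HSD17B14 lay below that median, where marker lists of other cell types lay (array means from 5.79 to 6.26 for immune and from 6.62 to 6.86 for fibroblast markers). Whether these 4 members were above background is not shown by the values, so their differences describe the signal and do not bound the transcript. HSD17B1 (mean 8.64), HSD17B8 (8.66) and HSD17B12 (8.51) lay above the median but below the fibroblast marker COL1A1 (8.86). HSD17B4 (9.94) and HSD17B10 (11.2) lay above that marker. A place above the median thus does not show a signal above background, and the fold changes of HSD17B1, HSD17B8 and HSD17B12 also describe the signal. In the averaged E2 contrast, 1.55% of all probe sets passed at a limma adjusted p below 0.05, and 0.457% in the averaged siRNA contrast. With E2, 4 of 10 genes of a short estrogen response list rose, CXCL12, GREB1, MYBL1 and PGR. The lists were chosen with earlier results of these data known, so they are no independent check that E2 acted. 17β-HSD1 siRNA raised 6 of 11 interferon response genes, with a median change of 1.44 over the list against 0.01 over all probe sets. That count was 11 with the replicate block, 0 without either E2 replicate of 17β-HSD1 siRNA, and 2, 3, 2 and 11 without control vehicle replicate 1, 17β-HSD1 siRNA vehicle replicates 1 and 2, and control E2 replicate 2. The part of that interferon change in the values below was not tested. In bulk RNA, fewer cells of a type and less RNA per cell cannot be told apart.

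After 17β-HSD1 siRNA, HSD17B1 was the member with the lowest averaged change, and no member passed the test. In replicates 1 and 2, the control arrays read 9.35 and 8.66 without E2 and 9.12 and 8.56 with it. The arrays with 17β-HSD1 siRNA read 8.41 and 8.36 without E2 and 8.32 and 8.37 with it. The control arrays were spread widely and the 4 siRNA arrays lay close together, below every control array. Such a separation in the lower direction was found for 2.16% of the 21214 probe sets tested.

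Averaged over the 2 media, the HSD17B1 signal differed by -0.56 ± 0.16 (log2, SE, 4 arrays against 4). That is 0.680-fold in signal, with a 95% interval from 0.530 to 0.873. The limma adjusted p was 0.221, and 0.0827 with the replicate number as a block. Without the array that stood apart the change was -0.57. For comparison, 0.457% of all probe sets passed at an adjusted p below 0.05 in this contrast, in either direction. It was -0.62 ± 0.23 without E2 and -0.49 ± 0.23 with it. The first was -0.27 without control vehicle replicate 1 and -0.96 without replicate 2, and the second -0.22 and -0.77 without the same numbers of control E2. In order of group means, control siRNA with vehicle stood at 9.0 ± 0.49 (SD, n = 2) and control siRNA with E2 at 8.84 ± 0.39. 17β-HSD1 siRNA with vehicle stood at 8.38 ± 0.04 and with E2 at 8.34 ± 0.04. The 2 control groups did not differ beyond their spread, and nor did the 2 siRNA groups. The gap between the pairs was slightly wider than the SD of the control groups.

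**Figure D1:**
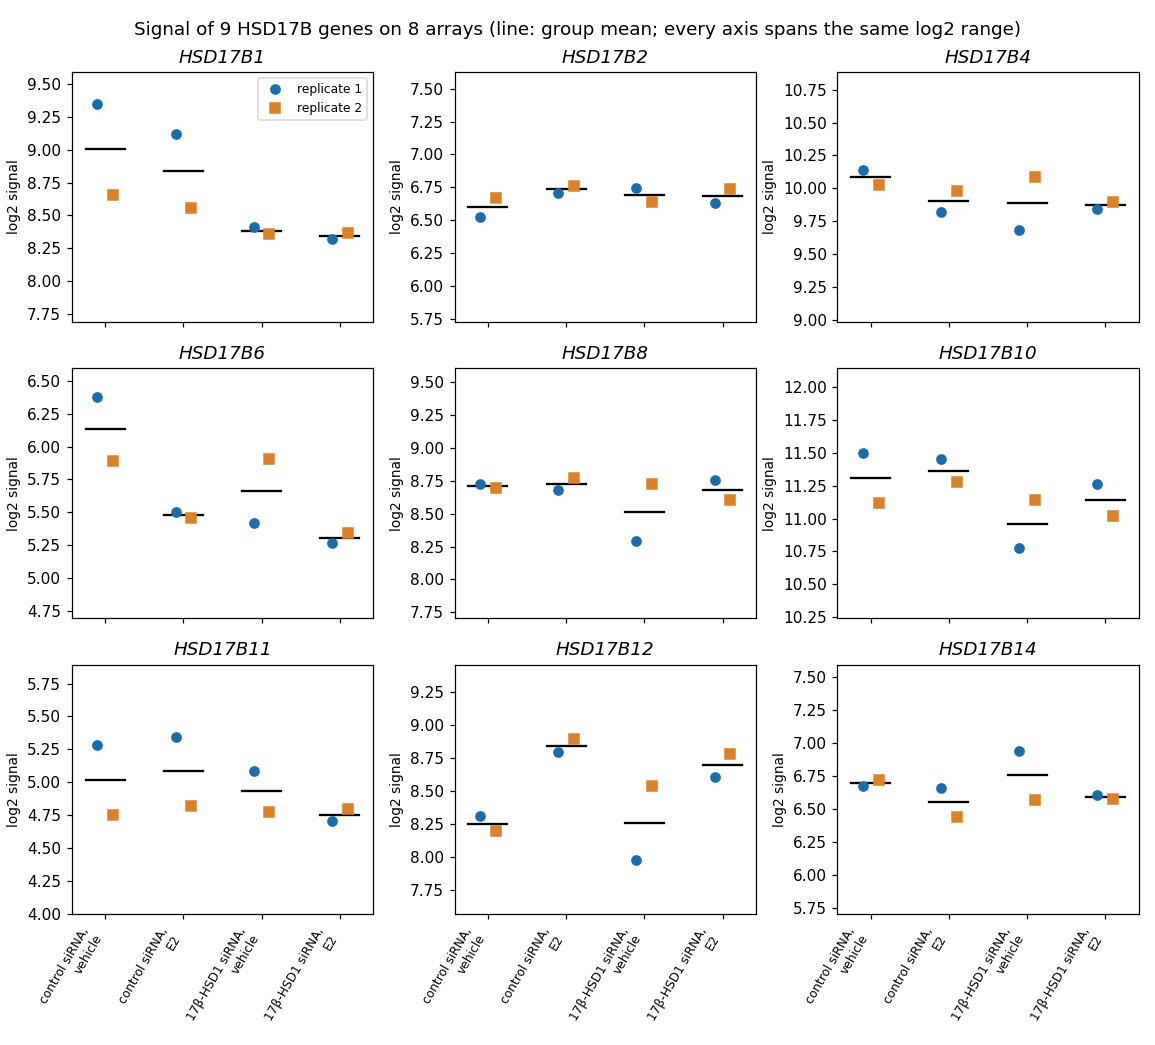
Log2 signal (vertical axis) of the 9 measured HSD17B genes in the 4 groups (horizontal axis); circles are replicate 1, squares replicate 2 and lines group means. HSD17B1 lay between 8.32 and 8.41 on the 4 arrays with 17β-HSD1 siRNA and between 8.56 and 9.35 on the control arrays, while HSD17B12 was higher on every E2 array.

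The size of the HSD17B1 difference depended on the replicate number. Between same-numbered arrays, the difference in vehicle was -0.94 for replicate 1 (0.523-fold) and -0.30 for replicate 2 (0.811-fold). In E2 it was -0.80 (0.576-fold) and -0.19 (0.876-fold). The siRNA arrays of both numbers ended at nearly the same signal, so the gap came from the control arrays: replicate 2 lay below replicate 1 by 0.69 in vehicle and by 0.56 in E2. A gap of at least 0.5 in that direction in both control groups was seen in 110 probe sets (0.519%). Of those, 6 also had all siRNA arrays below all control arrays, HSD17B1 among them. Whether the 2 experiments differed in their response was not tested. Leaving out control siRNA, vehicle replicate 1 gave an averaged change of -0.38, and leaving out replicate 2 of the same group gave -0.73.

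The genes whose pattern over the 8 arrays was most like that of HSD17B1, by Pearson r among 18416 other genes, were SLC4A8, LRP12, ZNF217 and ARHGAP29. Their r values were 0.985, 0.974, 0.966 and 0.966, and 83 genes had an r above 0.9. SLC4A8, a sodium bicarbonate transporter gene, had signals of 8.53 and 7.34 in control siRNA with vehicle and 8.21 and 7.13 in control siRNA with E2. Its 4 siRNA arrays lay between 6.99 and 7.17. In ARHGAP29 the control arrays read 9.08, 7.92, 8.91 and 8.01, and the siRNA arrays lay between 7.45 and 7.84. Each of these 4 genes was high in replicate 1 of both control groups. These points share 8 arrays and 2 experiments, and the r values are a description.

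**Figure D2:**
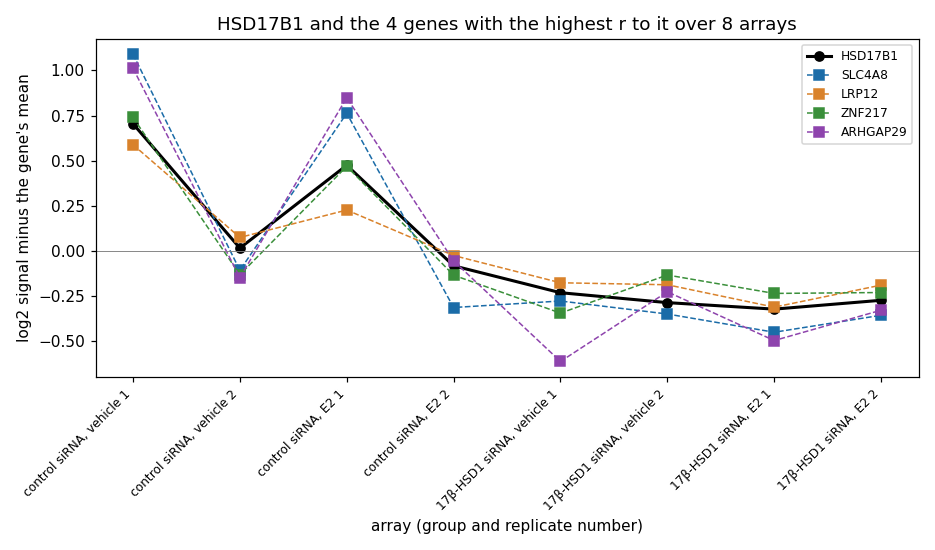
Log2 signal minus the gene's own mean (vertical axis) on each of the 8 arrays (horizontal axis, group and replicate number) for HSD17B1 (solid line) and the 4 genes with the highest correlation to it (dashed lines); lines only guide the eye between arrays. All 5 genes peaked in replicate 1 of the 2 control groups, where HSD17B1 read 9.35 and 9.12.

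Among the members closest to HSD17B1 in function, HSD17B2 showed little spread over the arrays. With control siRNA its arrays read 6.53 and 6.67 without E2 and 6.71 and 6.76 with it. After 17β-HSD1 siRNA they read 6.75 and 6.64 without E2 and 6.63 and 6.74 with it. The groups overlapped after siRNA treatment, and the averaged difference was 0.02 ± 0.10. Its 95% interval ran from 0.870- to 1.18-fold (adjusted p = 0.988), and it applies to the signal of a dim probe set.

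HSD17B14 encodes a cytosolic family member that can oxidise estradiol in vitro. The control arrays read 6.68 and 6.72 without E2 and 6.66 and 6.44 with it, and the siRNA arrays 6.94 and 6.57 without E2 and 6.61 and 6.58 with it. The highest value was that of the array that stood apart. The averaged difference was 0.05 ± 0.12 with all arrays (0.867- to 1.23-fold), and -0.04 without that array.

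HSD17B6 encodes a microsomal enzyme that can oxidise androstanediol to the potent androgen dihydrotestosterone. Its signal was 6.38 and 5.89 in control siRNA with vehicle, 5.42 and 5.91 in 17β-HSD1 siRNA with vehicle, 5.50 and 5.46 in control siRNA with E2 and 5.27 and 5.34 in 17β-HSD1 siRNA with E2. Within E2 the siRNA difference was -0.18 ± 0.20, within its error, and within vehicle the groups overlapped. The averaged siRNA difference was -0.32 ± 0.14 (0.799-fold, interval 0.644 to 0.990, adjusted p = 0.494), or -0.20 without the array that stood apart. By replicate number, the difference in vehicle was -0.96 for replicate 1 and 0.02 for replicate 2.

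Of the members with mitochondrial roles, HSD17B10 encodes a short-chain dehydrogenase of isoleucine breakdown that is also a subunit of mitochondrial RNase P. Its signal was 11.5 and 11.1 in control siRNA with vehicle and 11.4 and 11.3 in control siRNA with E2. With 17β-HSD1 siRNA it read 10.8 and 11.1 without E2 and 11.3 and 11.0 with it. The groups overlapped. The averaged difference was -0.29 ± 0.13 (0.821-fold, interval 0.672 to 1.00, adjusted p = 0.533), and it was -0.20 without the array that stood apart.

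HSD17B8 encodes a subunit of the reductase of mitochondrial fatty acid synthesis. Its 3 probe sets held identical values on every array and count as 1 measurement. Except for 8.30 on the array that stood apart, its signal stayed between 8.60 and 8.77 on all arrays. The averaged siRNA difference was -0.12 ± 0.12, and -0.01 without that array.

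HSD17B4, the peroxisomal multifunctional enzyme gene, ran from 9.68 on the array that stood apart to 10.1, and its averaged difference of -0.11 ± 0.12 was -0.01 without that array. HSD17B11, whose product sits on lipid droplets, had control signals of 5.28 and 4.75 without E2 and 5.35 and 4.82 with it. Its siRNA arrays read 5.09 and 4.77 without E2 and 4.70 and 4.80 with it. As in HSD17B1, replicate 1 was the higher of both control groups, and the correlation of HSD17B11 with HSD17B1 over the 8 arrays, 0.824, was the highest within the family. The averaged difference was -0.21 ± 0.16 (0.683- to 1.10-fold), or -0.08 without control siRNA, E2 replicate 1 or vehicle replicate 1.

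In the averaged siRNA contrast, 0 of 9 members were called by limma, with or without the replicate block (1.34% of all probe sets with it), and 2 (HSD17B1 and HSD17B6) had an unadjusted p below 0.05, as had 9.44% of all probe sets. The member median was -0.12, against 0.01 over all probe sets, and 7 of 9 changes were negative. Without the array that stood apart the median was -0.04, against -0.03 over all probe sets, and 8 of 9 were negative. The members share the same arrays, so their signs are not independent. On simulated arrays of the same size with independent noise, a log2 change of 1 was called in 95% of cases in the averaged contrast. A change of 0.5 was called in 14%. The simulation left out the correlation between arrays of 1 replicate number (up to 0.44), so these rates need not hold here. In the data, 6 of 11 interferon response genes were called at a list median of 1.44. No member had a 95% interval reaching above 1.23-fold in the averaged siRNA contrast. That is the upper bound of HSD17B14, a dim probe set whose values do not bound the transcript, as for HSD17B2, HSD17B6 and HSD17B11. Among the 5 members above the median of all probe sets, the highest upper bound was 1.16-fold (HSD17B12), which also applies to the signal. Within a single medium their highest upper bound was 1.33-fold in vehicle (HSD17B12) and 1.26-fold in E2 (HSD17B4). No member was called within a single medium either (0 of 9 in vehicle, 0 of 9 in E2). In these contrasts 0% of all probe sets passed, and 5.45% and 4.61% had an unadjusted p below 0.05. In the same simulation for vehicle alone, 53% of changes of 1 and 1% of changes of 0.5 were called. The lack of calls within 1 medium therefore decides little.

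**Figure D3:**
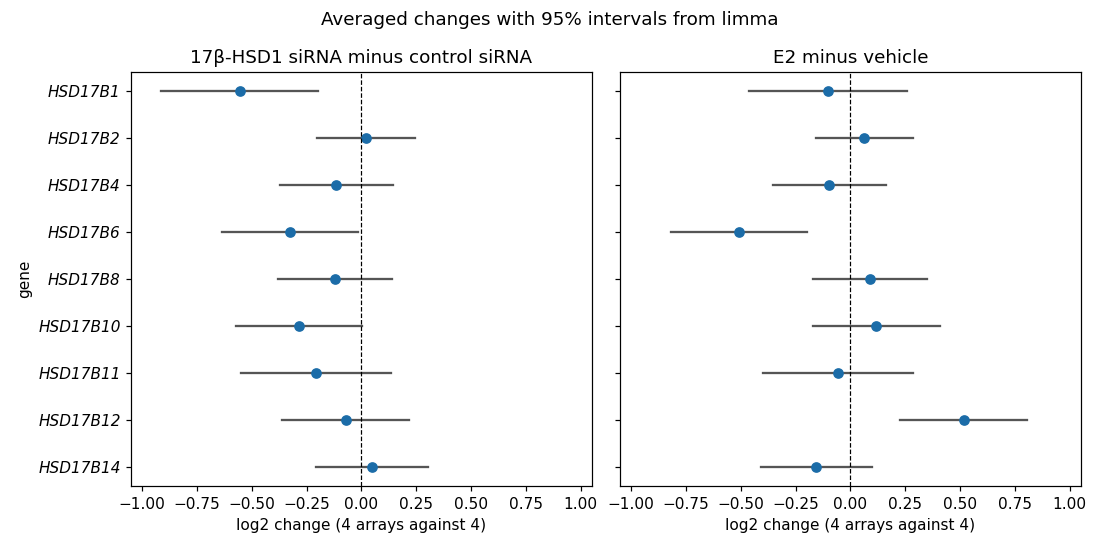
Averaged log2 changes (horizontal axis) of the 9 measured genes for 17β-HSD1 siRNA against control siRNA (left) and E2 against vehicle (right); points are limma estimates over 4 arrays against 4 and bars 95% intervals. HSD17B1 stands at -0.56 on the left, and HSD17B12 at 0.52 and HSD17B6 at -0.51 on the right; none of these passed adjustment over all probe sets.

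Specificity was examined by subtracting, on each array, each other member's log2 signal from that of HSD17B1 and comparing the 4 siRNA arrays with the 4 control arrays. This gave 8 pairs. The HSD17B1 change minus the other change was -0.60 ± 0.18 (SE) for HSD17B14, -0.58 ± 0.23 for HSD17B2 and -0.35 ± 0.10 for HSD17B11. In these 3 pairs all siRNA arrays lay below all control arrays, and the exact two-sided permutation p was 0.0286, the smallest that 70 arrangements can give. Adjusted over the 8 pairs it was 0.0762, and none of the pairs passed. With so few arrangements, 3 pairs at the smallest p could not pass however large their differences. The lack of a pass therefore does not decide specificity. The other member in each of these 3 pairs had a dim probe set, below the median of all, so the pairs do not show that the siRNA spared those transcripts. For HSD17B12, HSD17B4 and HSD17B8 the differences were -0.48 ± 0.34, -0.44 ± 0.21 and -0.43 ± 0.23. For HSD17B10 and HSD17B6, whose own averages were also lower, they were -0.27 ± 0.17 and -0.23 ± 0.23 (exact permutation p = 0.2 and 0.429, adjusted p = 0.267 and 0.429). All 8 differences had the same sign, but they share the HSD17B1 values.

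**Figure D4:**
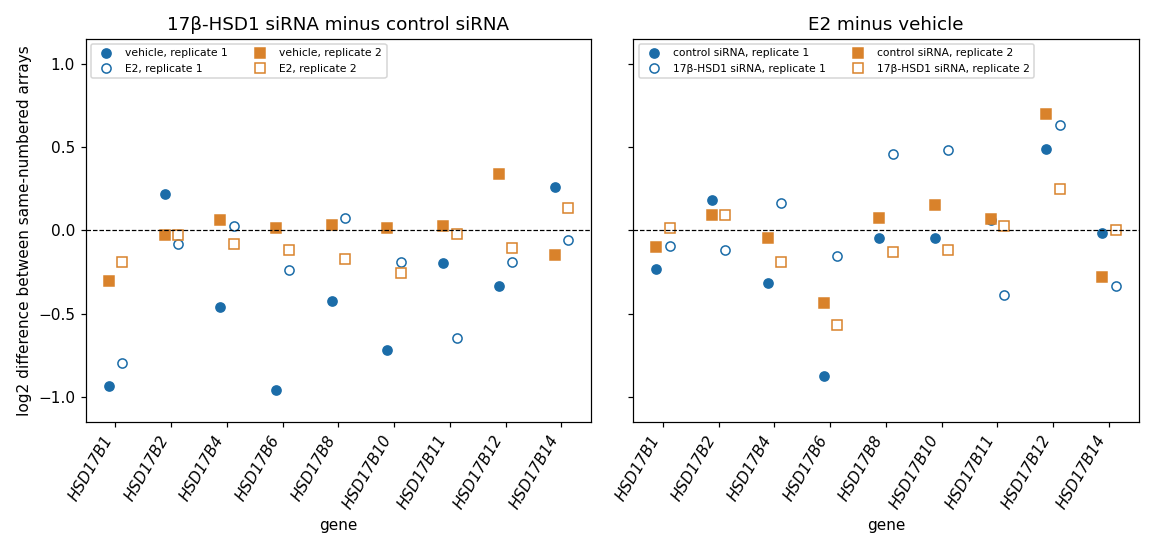
Log2 differences (vertical axis) between arrays with the same replicate number for the 9 genes (horizontal axis): 17β-HSD1 siRNA minus control siRNA in each medium (left) and E2 minus vehicle with each siRNA (right). HSD17B1 is below 0 in all 4 siRNA differences, from -0.94 to -0.19, and HSD17B12 is above 0 in all 4 E2 differences, from 0.25 to 0.70.

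With E2, the members with the lowest p were HSD17B12 on the higher side and HSD17B6 on the lower side, and neither passed the adjusted threshold. HSD17B12 encodes the ketoacyl-CoA reductase of the elongation cycle that builds very-long-chain fatty acids. Its vehicle signals were 8.31 and 8.20 with control siRNA and 7.98 and 8.54 with 17β-HSD1 siRNA. In E2 they were 8.80 and 8.89 with control siRNA and 8.61 and 8.78 with 17β-HSD1 siRNA. Every E2 array lay above every vehicle array, a separation found in 2.94% of all probe sets.

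The averaged E2 change of HSD17B12 was 0.52 ± 0.13, or 1.43-fold with an interval from 1.17 to 1.75. The limma adjusted p was 0.0984, and 0.0515 with the replicate block, over a range of 0.0209 to 0.437 among 16 alternative settings. It rested in part on the 2 vehicle arrays with 17β-HSD1 siRNA, which read 7.98 and 8.54: without replicate 1, the array that stood apart, it was 0.38 (adjusted p = 0.123), and without replicate 2 it passed, at 0.66 (adjusted p = 0.0209). The change was 0.59 ± 0.19 with control siRNA and 0.44 ± 0.19 with 17β-HSD1 siRNA. The latter was 0.16 without the array that stood apart and 0.72 without the other vehicle array. The difference between the 2 changes was -0.15 ± 0.26 (interval -0.73 to 0.43, adjusted p = 1), which does not show that they were alike, and it was -0.43 and 0.13 without those same arrays. Group means ran from 8.85 ± 0.07 (SD, n = 2) in control siRNA with E2 and 8.70 ± 0.12 in 17β-HSD1 siRNA with E2 to 8.26 ± 0.40 and 8.25 ± 0.08 in the vehicle groups of 17β-HSD1 and control siRNA.

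HSD17B6 was lower with E2 by -0.51 ± 0.14 on average, 0.704-fold with an interval from 0.567 to 0.872 (adjusted p = 0.146). Without the array that stood apart it was -0.63 (adjusted p = 0.0642). All 4 differences between same-numbered arrays were negative: -0.88 and -0.43 with control siRNA and -0.15 and -0.57 with 17β-HSD1 siRNA. Over all arrays the 2 media still overlapped, because 17β-HSD1 siRNA, vehicle replicate 1 (5.42) lay below the control siRNA arrays in E2. The change was -0.65 ± 0.20 with control siRNA and -0.36 ± 0.20 with 17β-HSD1 siRNA, and their difference was 0.29 ± 0.28 (interval -0.33 to 0.92, adjusted p = 1). With control siRNA it was -0.41 without vehicle replicate 1 and -0.90 without vehicle replicate 2. With 17β-HSD1 siRNA it was -0.60 without vehicle replicate 1, the array that stood apart, and -0.12 without vehicle replicate 2. The difference between them was 0.05 without vehicle replicate 1 of either siRNA and 0.54 without vehicle replicate 2 of either.

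The other 7 members had averaged E2 changes between -0.16 ± 0.12 (HSD17B14) and 0.12 ± 0.13 (HSD17B10), with adjusted p of 0.893 and above. HSD17B1 itself differed by -0.10 ± 0.16 (0.726- to 1.20-fold) and HSD17B2 by 0.06 ± 0.10 (0.896- to 1.22-fold). HSD17B4 differed by -0.10 ± 0.12 and HSD17B8 by 0.09 ± 0.12 (-0.20 and -0.02 without the array that stood apart). HSD17B11 differed by -0.06 ± 0.16. In all, 0 of 9 members were called for averaged E2, where 1.55% of probe sets were (2.4% with the replicate block, again 0 members), and 2 of 9 had an unadjusted p below 0.05, as had 8.89% of probe sets. None was called for E2 with control siRNA (0.0848% of probe sets called), for E2 with 17β-HSD1 siRNA (0.269%) or for the difference between the E2 responses (0%). In limma, 5.94%, 4.52% and 0.66% of all probe sets had an unadjusted p below 0.05 in these 3 contrasts, against 2, 1 and 0 of the 9 members.

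Promoter sequence, taken from RefSeq on GRCh38.p14, was matched for 5 of the 10 genes (HSD17B4, HSD17B7, HSD17B8, HSD17B10 and HSD17B11). The 250 bases before each start were searched on both strands for the palindromic estrogen response element GGTCANNNTGACC, for its half-site GGTCA, which the palindrome contains, and for the GC box GGGCGG. The full element was in none of the 5 and in 0.0399% of 35116 promoters. The half-site was in 1 of 5, against 32.6% of promoters, and the GC box in 4 of 5, against 42.6%. HSD17B4 (chr5:119452247-119452496, plus strand) is shown because it held the half-site, in capitals and read on the opposite strand, at 22 bases before the start. HSD17B10 (chrX:53434377-53434626, minus strand) is shown beside it as a promoter of the family without the half-site.
HSD17B4: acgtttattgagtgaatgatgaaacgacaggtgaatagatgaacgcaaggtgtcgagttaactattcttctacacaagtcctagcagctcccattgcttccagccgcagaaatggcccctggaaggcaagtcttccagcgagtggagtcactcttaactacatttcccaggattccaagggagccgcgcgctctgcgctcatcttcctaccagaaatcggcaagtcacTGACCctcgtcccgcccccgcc
HSD17B10: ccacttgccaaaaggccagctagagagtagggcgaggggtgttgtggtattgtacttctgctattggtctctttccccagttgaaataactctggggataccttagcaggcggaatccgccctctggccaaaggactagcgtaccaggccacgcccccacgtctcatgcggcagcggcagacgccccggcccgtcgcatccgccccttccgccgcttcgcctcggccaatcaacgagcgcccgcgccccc
The GC content was 52.8% for HSD17B4 and 63.2% for HSD17B10, against a median of 58.0% over all promoters, and HSD17B10 held 2 GC boxes and HSD17B4 1. The E2 changes of both genes, -0.10 ± 0.12 and 0.12 ± 0.13, were within their errors. A match is only a run of letters and no site is implied.

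The genes that work beside the members in their pathways were followed as lists. In the averaged E2 contrast, 1.55% of all probe sets were called. Of 11 measured genes of very-long-chain fatty acid elongation, the cycle that HSD17B12 serves, 1 rose with E2 and none fell. It was ELOVL2, an elongase of polyunsaturated fatty acids, at 0.97 ± 0.16 (1.96-fold, adjusted p = 0.0136). The ELOVL2 probe set was dim, below the median of all probe sets. Its signals were 5.98, 6.17, 6.07 and 5.79 on the vehicle arrays and 6.88, 7.71, 6.66 and 6.66 on the E2 arrays, with no overlap. The call was lost when any of 3 arrays with 17β-HSD1 siRNA was left out: vehicle replicate 2 (adjusted p = 0.0641), E2 replicate 1 (0.0611) or E2 replicate 2 (0.0679). Testing also the unnamed probe sets ended it too (0.0876). The list's median E2 change was 0.05, against -0.02 over all probe sets. Without the array that stood apart it was -0.06, against 0.01. After 17β-HSD1 siRNA no gene of this list was called, 1 of 11 changes was positive and the median was -0.23, against 0.01 over all probe sets. The array that stood apart was the lowest for 7 of the 11 genes. Without it the median was -0.13, against -0.03 over all probe sets, and 4 of 11 changes were positive. The luminal markers moved alongside, with a median of -0.27 and 7 of 8 negative. Their median was -0.18 without that array and -0.097 without control siRNA, vehicle replicate 1. The part of that array or of the luminal shift in the list's shift was not tested. ELOVL6, the elongase of saturated long chains, stood at -0.56 ± 0.14 and HACD2, a dehydratase of the same cycle, at -0.70 ± 0.20 (adjusted p = 0.122 and 0.218). HACD2 differed by -0.42 without control siRNA, vehicle replicate 1, and without replicate 2 of that group by -0.98, which passed (adjusted p = 0.0143).

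HSD17B7 has a role in the cholesterol synthesis steps after squalene, and of 11 measured genes of those steps none was called with siRNA or E2. LBR, which encodes the lamin B receptor, a sterol reductase, came closest with siRNA at -0.51 ± 0.11 (adjusted p = 0.0813), and it fell with the replicate block (adjusted p = 0.0495), in the additive model (0.044) and without 17β-HSD1 siRNA, vehicle replicate 2 (0.0475). Its E2 change was 0.44 ± 0.11 (adjusted p = 0.0902), which passed in the additive model (0.0476) and without 17β-HSD1 siRNA, vehicle replicate 2 (0.0487). The list's median siRNA change was -0.33 in vehicle (0 of 11 positive) and -0.04 in E2 (3 of 11 positive), or -0.18 averaged. The array that stood apart was the lowest for 8 of the 11 genes. Without it the median was -0.11 in vehicle and -0.09 averaged, against -0.04 and -0.03 over all probe sets.

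No gene was called with siRNA or E2 in the lists for peroxisomal oxidation beside HSD17B4 (8 genes, median siRNA change -0.02), mitochondrial RNase P and isoleucine breakdown beside HSD17B10 (10 genes, -0.16), mitochondrial fatty acid synthesis beside HSD17B8 (7 genes, -0.08) and lipid droplets beside HSD17B11 (11 genes, -0.05). Over all probe sets the median was 0.01. Without the array that stood apart, the list medians were 0.03, -0.03, 0.03 and -0.04, against -0.03 over all probe sets. BCAT2, which starts branched-chain amino acid breakdown, stood at -0.38 ± 0.13 after siRNA (adjusted p = 0.352). ABCD3, a peroxisomal fatty acid transporter gene, stood at -0.26 ± 0.11 (adjusted p = 0.451). PNPLA2, the main triglyceride lipase gene of lipid droplets, stood at -0.34 ± 0.10 with E2 (adjusted p = 0.218).

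Other routes to the same steroids gave no call either. Of 12 measured relatives with 17β-HSD or similar dehydrogenase activity and 18 genes of estrogen and androgen conversion and clearance, none was called with siRNA or E2. Their median siRNA changes were 0.05 and 0.06, against 0.01 over all probe sets. Without the array that stood apart they were -0.03 and -0.02, against -0.03 over all probe sets. HSD17B3, which encodes the testicular enzyme that makes testosterone, stood at 0.18 ± 0.14 after siRNA, and AKR1C3, also known as the type 5 enzyme and named after its value was seen, at 0.03 ± 0.12. STS, the steroid sulfatase gene, which frees estrone from its sulfate store, read 10.1 and 8.63 in control siRNA with vehicle and 9.14 and 8.17 in control siRNA with E2. With 17β-HSD1 siRNA it read 9.86 and 9.42 without E2 and 9.43 and 9.07 with it. Replicate 1 was the higher in each of the 4 groups, and its E2 change was -0.54 ± 0.29 (adjusted p = 0.715), with a range of -0.91 to -0.18 when single arrays were left out. CYP1A1, an estrogen hydroxylase gene, stood at -0.65 ± 0.25 with E2 (adjusted p = 0.396), with a range of -0.92 to -0.39.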

How the data were processed

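The authors' deposited table holds log2 signals of 33297 probe sets on 8 arrays (2.42 to 15.2), with the log2 scale read from the values. How they were summarised, background-corrected and normalized is not given in the sources used here. Names came from the platform annotation: 19460 probe sets had 1 symbol, 1754 several and 12083 none, and 31 of the 19460 found no RefSeq entry by gene ID. The 21214 with a symbol were fitted with limma 3.58.1 in R 4.3.3 (1 coefficient per group over 8 arrays, 4 residual degrees of freedom, eBayes), and a call is a Benjamini-Hochberg adjusted p below 0.05 over all of them. Changes are log2 differences ± SE. The family and the lists were chosen with earlier results of these data known. All members were described. List genes were named if called, or up to 3 with the smallest p of the averaged siRNA or E2 contrast. The interferon response genes were an exception and were counted without names. The 4 genes most like HSD17B1 by Pearson r were named too. The planned comparison of 9 pairs of members became 8, without HSD17B7.

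Replicate numbers were taken as the experiments, since the labels describe 2 independent cultures. Deviations from group means had correlations between arrays of 1 number of 0.44, 0.31, 0.31 and 0.42 in 4 of 6 pairs of groups, of 0.01 for control siRNA with vehicle against 17β-HSD1 siRNA with E2, and of -0.20 against 17β-HSD1 siRNA with vehicle. The fit was tested on simulated data, with independent noise drawn from the fitted spread: over 21214 probe sets, the averaged siRNA contrast gave 6 false calls among 115. The number of arrays limits the precision.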

Additional observations from a re-analysis of the deposited data

How the results depend on the processing

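Settings tried were removal of dim probe sets, addition of those without a symbol, quantile normalization, a trended robust spread, the replicate block, the 4 arrays compared, an additive model, means over probe sets and leaving out each array, which assumes that a lone array varies like the other groups. A block with the numbers of control siRNA, vehicle crossed was added after seeing the data, as was leaving out each array for the list medians. Of 465 recomputed member values, 449 kept their direction and side of the threshold, and 2, both HSD17B12 with averaged E2, newly passed. The number of members called stayed 0 in 6 of the 7 contrasts. In averaged E2 it was 0 to 1 without each array and 1 with the crossed block (HSD17B12, adjusted p = 0.0451). With the replicate block it was 0 in each contrast. The number of pairs passing stayed 0. With labels permuted within the replicate block no pair could pass, because the few arrangements keep every exact p above 0.05. That setting is therefore no check of the result (smallest adjusted exact permutation p = 0.0889).

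Leaving out single arrays turned the direction of uncalled values near 0. Averaged siRNA changes then ran from -0.014 to 0.057 for HSD17B2, -0.21 to 0.068 for HSD17B12 and -0.044 to 0.14 for HSD17B14. Averaged E2 changes ran from -0.27 to 0.071 for HSD17B1, -0.20 to 0.0045 for HSD17B4, -0.018 to 0.20 for HSD17B8 and -0.19 to 0.076 for HSD17B11. The siRNA change of AKR1C3 ran from -0.065 to 0.12. The difference between E2 responses of HSD17B12 ran from -0.43 to 0.13. HSD17B1's averaged siRNA change ran from -0.73 to -0.38 (adjusted p over all settings 0.0611 to 0.755). The dim filter removed HSD17B2, HSD17B6, HSD17B11, HSD17B14 and ELOVL2. Interferon genes called numbered 0 with probe sets without a symbol added and 2 with the trended robust spread. Counts of called probe sets moved with the setting, from 97 to between 0 and 285 for averaged siRNA, 329 to between 99 and 509 for averaged E2, 18 to between 0 and 127 for E2 with control siRNA and 57 to between 0 and 111 for E2 with 17β-HSD1 siRNA. They moved from 0 to at most 63 and 65 for siRNA in vehicle and in E2, and stayed 0 for the difference between E2 responses.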
